A study of Arabidopsis thaliana with 18 samples.

Results

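The 8 genes described here make cellulose in the primary wall of growing Arabidopsis thaliana cells. They were chosen by name as the catalytic subunits CESA1 (AT4G32410), CESA2 (AT4G39350), CESA3 (AT5G05170), CESA5 (AT5G09870) and CESA6 (AT5G64740), and the accessory genes CSI1 (AT2G22125), COBRA (AT5G60920) and KOR1 (AT5G49720). They are 8 of the 32833 loci listed in each library, and all 8 passed the filter on low values in every fit. The measurements were transcript abundances from stranded mRNA libraries of 4-day-old Col-0 background seedlings. The groups were wild type kept in darkness (WT_Dark, n = 6), cry2-1 mutants kept in darkness (cry2_Dark, n = 3), wild type and cry2-1 given 30 min of blue light at 30 µmol per square metre and second (WT_Blue and cry2_Blue, n = 3 each), and a dark-kept quadruple mutant, fkd1 fl1-2 fl2 fl3 (flΔ4_Dark, n = 3). The cry2-1 mutant lacks the blue-light receptor cryptochrome 2. FKD1 and its FORKED-LIKE relatives are known for their role in leaf vein patterning. All groups were whole seedlings, so fewer cells of a type and less RNA per cell cannot be told apart. The labels do not say whether replicates were separate cultures, so p-values measure the spread between these samples, which may be technical.

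Cellulose is spun into the wall by complexes in the plasma membrane that move along cortical microtubules. In the primary wall each complex needs CESA1, CESA3 and a subunit of the CESA6 type, a position that CESA6, CESA2 and CESA5 can fill in part for each other. CSI1 couples the complex to microtubules, KOR1 is a membrane-bound endoglucanase needed for normal cellulose synthesis, and COBRA is a membrane-anchored glycoprotein needed for oriented cellulose deposition and anisotropic growth. Dark-grown hypocotyls lengthen almost wholly by cell expansion and depend on this machinery, and light slows that growth.

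Values were TPM, each gene's length-scaled share of a library, so that levels can be compared between genes. Each library summed to 997143 to 998279 TPM, and 18493 to 19645 loci reached 1 TPM. TPM keep no read totals, so the depth is unknown. The targeted gene CRY2 was listed at 0 in each cry2_Dark library and reached 0.03 to 0.06 TPM in cry2_Blue, where the other libraries held 72.2 to 110.1 TPM. In flΔ4_Dark, FL1 (AT5G43870) was listed at 0.13 to 0.37 TPM against 2.81 to 4.62 TPM in WT_Dark 4-6. The ranges of FKD1, FL2 and FL3 overlapped between these groups. The dark wild-type libraries fell into a pair of sets, WT_Dark 1-3 and WT_Dark 4-6, which the headers of the tables name with the prefixes Da and D. The prefix is Db for cry2_Dark, D for flΔ4_Dark and M for both blue-light groups, and no label says what the letters mean. Light and the M prefix therefore cannot be told apart, and each light response of wild type is given against both dark sets. The prefix of cry2_Dark also differs from that of either dark wild-type set. Genotype and prefix therefore cannot be told apart in the cry2 effect in darkness, which also enters the interaction of genotype and light.

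The 300 bases upstream of the annotated gene start were read from the RefSeq TAIR10.1 sequence for all 8 genes, because most of them changed together in the comparisons. They are shown 5′ to 3′ for the 4 genes that fell most in blue light and for CESA2, which did not fall. Capitals mark matches on either strand to the E-box letters CANNTG or to CGTGNG, the brassinosteroid response element.
CESA1, chr4:15646845-15647144, minus strand: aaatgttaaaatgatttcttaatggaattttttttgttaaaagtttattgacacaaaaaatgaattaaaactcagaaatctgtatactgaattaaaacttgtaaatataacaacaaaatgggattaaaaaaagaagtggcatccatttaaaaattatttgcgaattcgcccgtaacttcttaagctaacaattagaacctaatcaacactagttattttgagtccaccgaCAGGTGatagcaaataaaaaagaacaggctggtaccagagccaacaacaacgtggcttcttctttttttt
CESA3, chr5:1535559-1535858, minus strand: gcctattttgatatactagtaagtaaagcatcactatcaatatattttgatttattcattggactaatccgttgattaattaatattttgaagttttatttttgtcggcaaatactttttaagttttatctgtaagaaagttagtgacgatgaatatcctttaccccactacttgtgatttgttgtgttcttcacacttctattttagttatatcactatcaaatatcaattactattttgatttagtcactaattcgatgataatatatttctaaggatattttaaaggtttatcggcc
CESA6, chr5:25880733-25881032, plus strand: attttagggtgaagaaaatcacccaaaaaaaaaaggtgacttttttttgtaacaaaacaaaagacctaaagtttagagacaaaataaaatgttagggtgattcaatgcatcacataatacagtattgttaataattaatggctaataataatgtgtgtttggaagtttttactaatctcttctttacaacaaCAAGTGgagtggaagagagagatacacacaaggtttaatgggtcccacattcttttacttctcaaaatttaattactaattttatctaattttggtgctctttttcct
CSI1, chr2:9405759-9406058, plus strand: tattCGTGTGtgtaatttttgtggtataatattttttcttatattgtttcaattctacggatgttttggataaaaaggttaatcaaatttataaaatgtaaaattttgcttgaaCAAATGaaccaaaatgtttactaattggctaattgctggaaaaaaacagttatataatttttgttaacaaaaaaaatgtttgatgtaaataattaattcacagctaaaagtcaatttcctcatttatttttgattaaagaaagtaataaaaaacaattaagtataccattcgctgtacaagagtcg
CESA2, chr4:18296088-18296387, plus strand: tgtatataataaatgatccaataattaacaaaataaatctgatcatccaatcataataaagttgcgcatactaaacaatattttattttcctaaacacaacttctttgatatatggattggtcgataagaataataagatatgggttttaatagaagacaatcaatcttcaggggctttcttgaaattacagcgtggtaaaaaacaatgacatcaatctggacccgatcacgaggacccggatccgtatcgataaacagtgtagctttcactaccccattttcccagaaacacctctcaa
The E-box letters were found in 4 of the 8 windows (CESA1, CESA5, CESA6 and CSI1) and in 61.9% of the 27443 windows of the same length in the annotation. They start at position -70 in CESA1, -108 in CESA6 and -186 in CSI1, counted from the gene start. The G-box CACGTG, which is one form of the E-box, was in none of the 8 and in 7.09% of all windows. CGTGNG was in the windows of COBRA and CSI1 and in 14.2% of all windows, the telo-box AAACCCTA in none of the 8 and in 5.21%, and the site II letters TGGGCC in that of COBRA and in 14.6%. The letters of CESA3 and CESA2, a gene that fell and a gene that did not, held none of the 5 motifs. These are matches of letters and not sites of binding.

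KOR1 was the most abundant of the 8 transcripts in each library, at 198 to 387 TPM. CESA1, CESA3, CESA6 and COBRA followed in the dark libraries of wild type and cry2, and CESA2, CSI1 and CESA5 were the lowest of the set there, at 16.7 to 46.6 TPM. For CESA1 the mean was highest in WT_Dark 1-3 (176 ± 9.26 TPM, SD, n = 3), followed by cry2_Dark (165 ± 27.2), WT_Dark 4-6 (111 ± 5.87), cry2_Blue (90.9 ± 8.58), flΔ4_Dark (81.3 ± 24.5) and WT_Blue (75.7 ± 14.0). WT_Dark 1-3 overlapped with cry2_Dark, and cry2_Blue, flΔ4_Dark and WT_Blue overlapped with their neighbours in that order, whereas the steps from cry2_Dark to WT_Dark 4-6 and from WT_Dark 4-6 to cry2_Blue were gaps. Only neighbours in the order were compared for gaps. The range of flΔ4_Dark, up to 109 TPM, also overlapped with that of WT_Dark 4-6, from 107 TPM. The order of CESA3 had gaps in the same places when cry2_Dark and WT_Dark 1-3, whose ranges overlapped, changed places. In CESA3 too flΔ4_Dark, up to 90.7 TPM, overlapped with WT_Dark 4-6, at 86.4 to 91.9 TPM. For CESA6, CSI1 and KOR1 the same dark libraries came first, followed by WT_Dark 4-6. KOR1 was lowest in cry2_Blue (210 ± 10.4 TPM) and CSI1 in WT_Blue (10.9 ± 2.91 TPM). CESA2 had no gap anywhere in its order, from 40.4 ± 5.82 TPM in WT_Dark 4-6 to 34.1 ± 3.57 TPM in cry2_Blue.

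**Figure D1:**
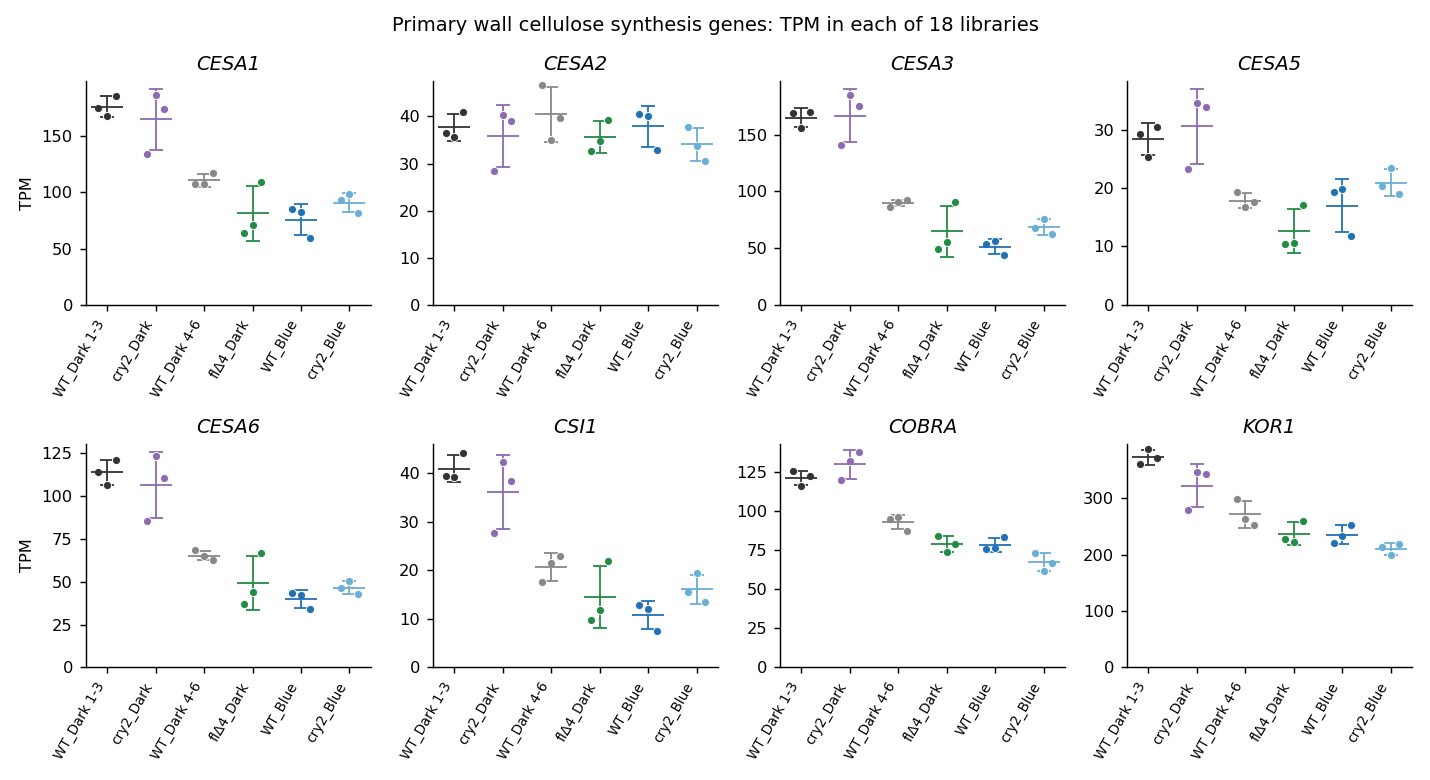
TPM (y axis, starting at 0) of each of the 8 genes in all 18 libraries, by group with WT_Dark shown as its 2 sets. Points are libraries, the long line is the mean and the bars are 1 SD. CESA1, CESA3, CESA6 and CSI1 are high in WT_Dark 1-3 and cry2_Dark and lower in the other groups, while CESA2 stays between 28.3 and 46.6 TPM throughout.

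The first comparison asks how 30 min of blue light changed these transcripts in wild type. Against WT_Dark 1-3, 7 of the 8 genes fell and none rose, in a limma fit of 12 libraries with adjustment over 19985 genes. Of all genes tested, 32.9% fell and 28.7% rose. The median change of the 8 was -0.98 on the log2(TPM + 1) scale against -0.04 for all genes tested. The largest falls were in the microtubule linker CSI1 and in CESA3, CESA6 and CESA1, and CESA2 did not pass the test.

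CSI1 was at 39.5, 39.2 and 44.2 TPM in WT_Dark 1-3 and at 12.9, 12.1 and 7.53 TPM in WT_Blue. Every light library was below every dark one, WT_Blue 3 the lowest, and CSI1 fell by 1.85 ± 0.20 on the log2 scale (SE, adjusted p = 5.559e-06 in limma). CESA3 was at 169, 155 and 169.9 TPM in darkness and at 53.7, 56.4 and 43.6 TPM in light, again with no overlap. This catalytic subunit fell by 1.67 ± 0.12 (adjusted p = 2.188e-07). CESA6, its partner in the complex, was at 114, 106 and 121 TPM and at 43.4, 42.2 and 34.1 TPM, and fell by 1.496 ± 0.135 (adjusted p = 1.163e-06). CESA1, the other obligate subunit, was at 175, 168 and 186 TPM and at 84.8, 82.8 and 59.6 TPM, and fell by 1.22 ± 0.15 (adjusted p = 1.338e-05). The dark and light ranges overlapped in none of these 4 genes. How many of all genes had no overlap was not counted, here or in the comparisons below.

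The fall was smaller in CESA5, KOR1 and COBRA. CESA5, which substitutes in part for CESA6, was at 29.4, 25.4 and 30.5 TPM in WT_Dark 1-3 and at 19.3, 19.9 and 11.7 TPM in WT_Blue, and fell by 0.74 ± 0.19 (adjusted p = 0.00506). The endoglucanase KOR1 was at 360.1, 387 and 370.4 TPM and at 220.2, 233 and 253 TPM, and fell by 0.66 ± 0.10 (adjusted p = 8.312e-05). COBRA was at 125, 116 and 122 TPM and at 75.6, 76.1 and 83.5 TPM, and fell by 0.62 ± 0.09 (adjusted p = 6.421e-05). In all 3 genes the light libraries lay below the dark ones. CESA2 was at 36.4, 35.7 and 41.0 TPM in darkness and at 40.6, 40.2 and 32.9 TPM in light. Its ranges overlapped, and the change was 0.00 ± 0.14 with a 95% interval from -0.30 to 0.31.

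Against WT_Dark 4-6, 4 of the 8 genes fell in blue light, beside 20.1% of the 19888 genes tested, whose median change was -0.17. These 4 were the same genes that led against WT_Dark 1-3. CSI1 was at 17.6, 21.5 and 23.0 TPM in this dark set and fell by 0.90 ± 0.21 (adjusted p = 0.00934). CESA3 was at 86.4, 91.0 and 91.9 TPM and fell by 0.81 ± 0.13 (adjusted p = 0.000956). CESA6 was at 68.4, 64.8 and 62.7 TPM and fell by 0.70 ± 0.14 (adjusted p = 0.00349). CESA1, at 107, 107 and 117 TPM, fell by 0.56 ± 0.15 (adjusted p = 0.0192). In each of the 4 genes all light libraries were below all libraries of this dark set too, and each fall was smaller than the difference of that gene between the dark sets (-0.96 for CSI1, -0.87 for CESA3, -0.79 for CESA6 and -0.67 for CESA1).

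CESA5, KOR1, COBRA and CESA2 did not pass the test against WT_Dark 4-6. CESA5 was at 19.3, 16.7 and 17.6 TPM there, within the range of WT_Blue, and differed by -0.10 ± 0.20. KOR1 was at 298, 263 and 252 TPM and differed by -0.20 ± 0.11, and COBRA at 95.1, 96.2 and 87.6 TPM differed by -0.24 ± 0.10 (adjusted p = 0.0757). CESA2 was at 46.6, 35.0 and 39.7 TPM and differed by -0.09 ± 0.15. Between the dark sets themselves, in a fit of those 6 libraries, 7 of the 8 genes were lower in WT_Dark 4-6, beside 21.1% of 19703 genes. The differences ran from -0.96 ± 0.12 for CSI1 and -0.87 ± 0.09 for CESA3 to -0.38 ± 0.09 for COBRA, and CESA2 differed by 0.09 ± 0.12.

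**Figure D2:**
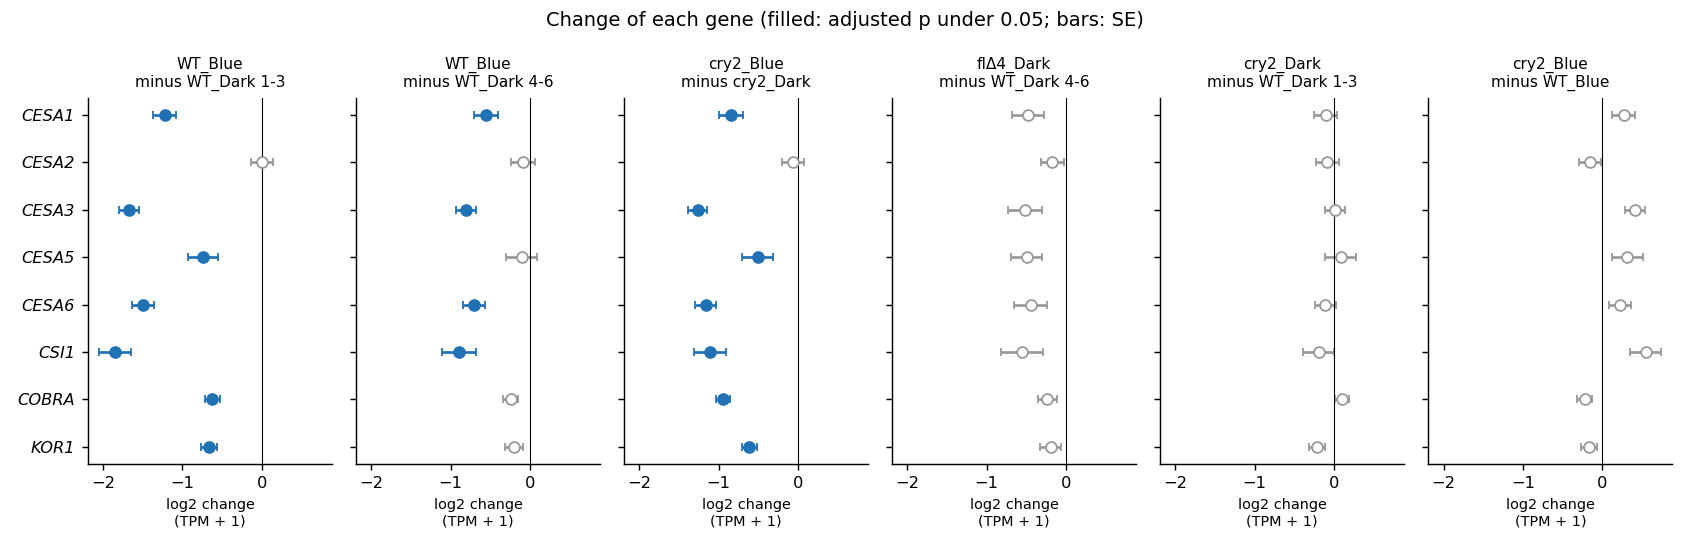
Log2 change in TPM + 1 (x axis) of each gene (rows) in 6 comparisons (panels), with bars of 1 SE and filled points for adjusted p under 0.05 in limma. CESA2 stays near 0 in the 3 light panels, CSI1, CESA3, CESA6 and CESA1 are filled in all 3, and no point is filled in the 3 panels on genotype.

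Markers of other tissues moved with the dark sets. The summed TPM of 19 secondary wall and xylem genes ran from 416 to 446 in WT_Dark 1-3, 352 to 462 in cry2_Dark, 67.8 to 100.6 in WT_Dark 4-6, 75.9 to 123 in flΔ4_Dark, 76.1 to 174 in WT_Blue and 124 to 199.7 in cry2_Blue. Against WT_Dark 1-3, 16 of the 17 of these that were tested fell in WT_Blue, beside 32.9% of all genes. Against WT_Dark 4-6, where 20.1% of all genes fell, only CESA4 fell and XCP2 rose. XCP2 is a xylem cysteine protease and was named after its value was seen. CESA7, a catalytic subunit of the secondary wall complex, ranged over 11.1 to 13.8 TPM in WT_Dark 1-3, over 1.45 to 2.52 TPM in the other dark set and over 2.01 to 3.48 TPM in the light. The summed TPM of 10 root markers were 298 to 319.97 in WT_Dark 1-3, 226.5 to 293 in cry2_Dark, 88.7 to 129.6 in WT_Dark 4-6, 84.8 to 128 in flΔ4_Dark, 81.5 to 103.05 in WT_Blue and 109 to 120.5 in cry2_Blue. CASP1, a protein of the root endodermis, accounted for 150.1 to 179.8 TPM of the sum in WT_Dark 1-3. In WT_Dark 4-6 it accounted for 21.2 to 47.2 TPM. PHO1 added 80.6 to 85.5 TPM and 26.75 to 42.4 TPM in these sets. SCR differed less (25.1 ± 1.74 and 21.7 ± 1.67 TPM), and WOX5 was not lower (1.00 ± 0.42 and 1.22 ± 0.05 TPM). The root hair gene EXPA7 was at 1.13 to 2.51 TPM in WT_Dark 1-3 and at most at 0.06 TPM in WT_Dark 4-6. It was listed at 0 in every WT_Blue library. The sums of both lists therefore differed between the dark sets in the same direction as CESA1, CESA3, CESA6 and CSI1. The part of these lists in the results was not tested. The summed TPM of 8 shoot markers were 7856 to 8346 in WT_Dark 1-3, 11455 to 13752 in WT_Dark 4-6 and 11411 to 13196 in WT_Blue, and most of it came from RBCS1A, a subunit of Rubisco. The means of LHCB2.1 rose in the same order, at 109 ± 14.2, 293 ± 192 and 784 ± 160 TPM in these groups. LHCB2.1 was higher in light against both dark sets. KNAT1 was at 32.2 ± 3.07, 46.8 ± 9.50 and 49.4 ± 7.60 TPM, and CLV3 at 0.45 ± 0.28, 0.61 ± 0.53 and 1.34 ± 0.42 TPM. STM, a gene of the shoot meristem, went the other way, at 13.8 ± 1.25, 8.45 ± 1.08 and 5.71 ± 0.66 TPM in these groups, and was lower in light against both dark sets. Of these groups, WT_Blue also had the lowest means of the epidermal genes ATML1 and CER6, at 7.29 ± 2.42 and 282 ± 10.7 TPM. In WT_Dark 1-3 they were at 23.8 ± 2.45 and 414 ± 4.27 TPM, and both passed against that dark set alone. Over all groups the mean of ATML1 was lowest in flΔ4_Dark (6.04 TPM) and that of CER6 in cry2_Blue (192 TPM). WUS, a gene of the shoot stem cell niche, was listed at no more than 0.15 TPM in any library.

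The make-up of the CESA transcripts differed between the groups, in light and between the dark sets. The 5 genes together summed to 491 to 549 TPM in WT_Dark 1-3 and to 182 to 242 TPM in WT_Blue. CESA2 held 6.94%, 7.28% and 7.47% of this sum in WT_Dark 1-3 and 16.8%, 16.7% and 18.1% in WT_Blue. It held 14.2%, 11.1% and 12.05% in WT_Dark 4-6, which lay between those and overlapped with neither. The share of CESA3 went the other way, from 31.7 ± 0.67% in WT_Dark 1-3 and 27.7 ± 1.28% in WT_Dark 4-6 to 23.2 ± 0.90% in WT_Blue (SD, n = 3 each). CESA1 held 33.8 ± 0.38%, 34.1 ± 1.48% and 34.0 ± 1.17% in these groups, with overlapping ranges.

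Within the CESA6 type, CESA2 made up 21.0 ± 0.60% of the summed TPM of CESA2, CESA5 and CESA6 in WT_Dark 1-3, 32.6 ± 2.36% in WT_Dark 4-6 and 40.1 ± 1.41% in WT_Blue. With 3 libraries against 3, a two-sided exact permutation test cannot give a p below 0.1, and the shares of CESA2, CESA3, CESA5 and CESA6 reached that p in the light response of wild type against either dark set (0.152 after Benjamini-Hochberg adjustment over 64 such tests). The libraries of the groups did not overlap in these shares, and this test cannot give a value under 0.05 with 3 against 3.

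**Figure D3:**
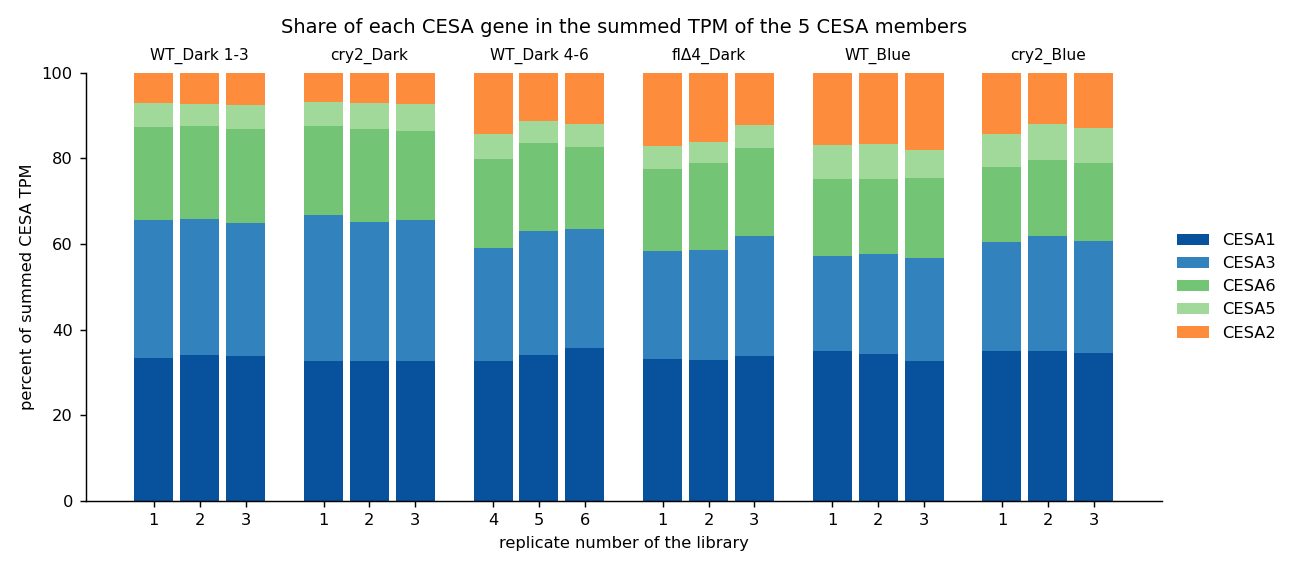
Percent of the summed TPM of CESA1, CESA2, CESA3, CESA5 and CESA6 (y axis) held by each gene in each of the 18 libraries (bars, by group and replicate number). The band of CESA2 is narrowest in WT_Dark 1-3 and cry2_Dark, at 6.88% to 7.47%, and has its highest mean in WT_Blue, at 16.7% to 18.1%, with flΔ4_Dark 1 inside that range.

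The second comparison is the light response without cryptochrome 2. In cry2-1, 7 of the 8 genes were lower in blue light than in darkness, beside 30.2% of 19985 genes. CESA3 was at 141, 185 and 175 TPM in the dark and at 67.7, 75.6 and 62.2 TPM in the light, and fell by 1.27 ± 0.12 (adjusted p = 3.288e-06). CESA6 was at 85.4, 123 and 111 TPM and at 46.5, 50.3 and 43.0 TPM, and fell by 1.16 ± 0.14 (adjusted p = 1.306e-05). CSI1 was at 27.8, 42.4 and 38.3 TPM and at 15.5, 19.4 and 13.4 TPM, and fell by 1.11 ± 0.20 (adjusted p = 0.000457). In none of these 3 genes did the dark and light libraries overlap, and cry2_Dark 1 was the lowest of the dark ones.

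COBRA was at 119.8, 132 and 138 TPM in the dark and at 73.1, 61.7 and 67.0 TPM in the light, a fall of 0.94 ± 0.09 on the log2 scale. CESA1 fell by 0.84 ± 0.15, from 134, 186 and 175 TPM to 92.7, 98.4 and 81.5 TPM. KOR1 fell by 0.61 ± 0.10, from 278, 346 and 343 TPM to 213, 198 and 219 TPM. These ranges did not overlap. CESA5 ran at 23.2, 34.6 and 34.0 TPM in darkness and at 20.4, 23.4 and 19.0 TPM in light, where the highest light library passed the lowest dark one. Its change of -0.51 ± 0.19 passed the test (adjusted p = 0.0399), and the call was lost without cry2_Dark 2, cry2_Dark 3, cry2_Blue 1 or cry2_Blue 3 (-0.41, -0.43, -0.49 and -0.44), in limma without trend and robust moderation (adjusted p = 0.0537) and with no filter on low values (adjusted p = 0.0576). CESA2 was at 28.3, 40.4 and 39.0 TPM and at 37.7, 33.8 and 30.6 TPM, overlapping, with a change of -0.06 ± 0.14.

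The difference between the light responses of cry2-1 and wild type, tested as an interaction in the same fit, passed the threshold for 0 of the 8 genes, beside 2.81% of 19985 genes. CSI1 had the largest value, 0.74 ± 0.28 (adjusted p = 0.173), which means a smaller fall in cry2-1, and CESA3 followed at 0.41 ± 0.18 (adjusted p = 0.227). COBRA had the opposite sign, -0.32 ± 0.13 (adjusted p = 0.197). These 3 genes had an unadjusted p under 0.05. With a trend in transcript length removed from each library, as described below, CSI1 was at 0.18 ± 0.16 and CESA3 at 0.14 ± 0.11, and CESA2 had the largest value, -0.38 ± 0.11 (adjusted p = 0.103). Without that removal, the 95% interval of CSI1 ran from 0.13 to 1.35 and that of CESA2 from -0.49 to 0.36. These intervals are not adjusted for the number of genes tested, and both include differences of moderate size. With WT_Dark 4-6 as the dark wild type the interaction of COBRA passed, at -0.70 ± 0.14 (adjusted p = 0.00421, beside 22.5% of 19888 genes), and CSI1 was at -0.22 ± 0.30, CESA1 at -0.29 ± 0.22 and CESA3 at -0.46 ± 0.18, on the other side of 0. When the length trend was also removed against that set, 7 of the 8 genes passed, beside 4952 of 19888 genes. These 7 ran from -0.57 ± 0.16 for KOR1 to -0.81 ± 0.13 for COBRA, and CESA2 did not pass, at -0.33 ± 0.15.

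The effect of cry2-1 was then compared within each condition. In darkness 0 of the 8 genes passed against WT_Dark 1-3, beside 12.9% of 19985 genes, of which 2001 were higher and 577 lower. Scaling to a median of ratios turned that split to 1056 higher and 1099 lower. The values of the 8 genes ran from -0.21 ± 0.10 for KOR1 to 0.10 ± 0.09 for COBRA, and none had an unadjusted p under 0.05. With the values scaled by a median of ratios KOR1 was at -0.32 ± 0.10 (unadjusted p = 0.00702 in limma, adjusted p = 0.0585) and COBRA at -0.01 ± 0.09, and with no filter KOR1 had an unadjusted p of 0.0454 in limma. The ranges of the 8 genes overlapped with WT_Dark 1-3 in all but KOR1, whose 3 libraries in cry2_Dark (278, 346 and 343 TPM) were below 360.1, 387 and 370.4 TPM. The share of all genes without overlap in this comparison was not counted, so the gap in KOR1 cannot be set against it. Against WT_Dark 4-6, 6 of the 8 were higher in cry2_Dark, CESA3 most, at 0.88 ± 0.13 (adjusted p = 0.000257), beside 20.5% of 19888 genes. The 2 that did not pass were CESA2, at -0.17 ± 0.15, and KOR1, at 0.24 ± 0.11.

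In blue light 0 of the 8 genes passed, beside 3.34% of 19985 genes. In cry2_Blue CESA3 was at 67.7, 75.6 and 62.2 TPM, above the 53.7, 56.4 and 43.6 TPM of WT_Blue with no overlap, and differed by 0.42 ± 0.12 (adjusted p = 0.0859). CSI1 was at 15.5, 19.4 and 13.4 TPM against 12.9, 12.1 and 7.53 TPM, also without overlap, and differed by 0.55 ± 0.20 (adjusted p = 0.141). COBRA was on the other side, with 73.1, 61.7 and 67.0 TPM against 75.6, 76.1 and 83.5 TPM and a difference of -0.22 ± 0.09 (adjusted p = 0.184). These 3 had an unadjusted p under 0.05, and the other 5 lay between -0.16 and 0.32. KOR1 also did not overlap, with 213, 198 and 219 TPM in cry2_Blue below 220.2, 233 and 253 TPM in WT_Blue, and differed by -0.16 ± 0.10. Here too the share of all genes without overlap was not counted. With the length trend removed CESA3 was at 0.17 ± 0.08 and CSI1 at 0.20 ± 0.11. The share of CESA2 in the CESA sum was 14.2%, 12.004% and 12.96% in cry2_Blue, below each WT_Blue library by at least the gap from 14.2% to 16.7%. Its mean differed from that of WT_Blue by -4.11 percentage points, and that of CESA3 by 3.06 points (two-sided exact permutation p = 0.1 for each, the smallest possible, adjusted 0.152). In darkness the CESA2 share was 7.10 ± 0.22% in cry2_Dark and 7.23 ± 0.27% in WT_Dark 1-3.

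The next comparison sets the quadruple mutant against dark wild type. In the fit of flΔ4_Dark and WT_Dark 4-6, 0 of the 8 genes passed, beside 0.304% of 19411 genes. All 8 values were below 0, and their median was -0.46 against -0.12 for all genes tested. CESA5 (-0.50 ± 0.20), CESA1 (-0.48 ± 0.20) and CESA3 (-0.52 ± 0.22) had an unadjusted p under 0.05 and adjusted p-values of 0.209, 0.218 and 0.224. CSI1 was at -0.55 ± 0.27 and CESA6 at -0.45 ± 0.20, and the smallest was CESA2 at -0.17 ± 0.15.

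One library stood apart within the mutant. CESA3 was at 48.7, 55.1 and 90.7 TPM in flΔ4_Dark 1, 2 and 3 against 86.4, 91.0 and 91.9 TPM in WT_Dark 4-6. CSI1 was at 9.82, 11.8 and 21.9 TPM against 17.6, 21.5 and 23.0 TPM, and CESA1 at 63.5, 71.0 and 109 TPM against 107, 107 and 117 TPM. In these genes flΔ4_Dark 1 and 2 were below wild type, and flΔ4_Dark 3 was within its range. Without flΔ4_Dark 3, 5 of the 8 genes were lower in the mutant (CSI1 -0.87, CESA3 -0.78, CESA1 -0.71, CESA5 -0.71 and CESA6 -0.69), beside 11.7% of 19357 genes, while the number of all genes called in either direction went from 59 to 2940. Genes with transcripts of 4 kb or more also lay higher in flΔ4_Dark 3, by a median of 0.35 above their group mean on the log2 scale, where the 8 genes had a median of 0.45. The part of that library's overall pattern in these values was not tested.

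COBRA was at 84.2, 73.6 and 79.2 TPM in flΔ4_Dark, below 95.1, 96.2 and 87.6 TPM in each WT_Dark 4-6 library. It differed by -0.23 ± 0.12 with an adjusted p of 0.303. KOR1 was at 228, 223 and 260.1 TPM, overlapping with wild type, at -0.19 ± 0.14. Against WT_Dark 1-3, whose header prefix differs from that of the mutant, 7 of the 8 were lower in the mutant, beside 25.4% of 19686 genes. These 7 ran from CSI1 at -1.51 ± 0.26 to COBRA at -0.61 ± 0.11, and CESA2 was at -0.08 ± 0.12. The CESA2 share was 15.1 ± 2.58% in flΔ4_Dark and 12.5 ± 1.59% in WT_Dark 4-6, with overlapping ranges.

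The 8 genes fell into groups by how they varied over the 18 libraries. Pairwise Pearson correlations of log2(TPM + 1) among CESA1, CESA3, CESA6 and CSI1 were 0.979 to 0.992, and COBRA and KOR1 correlated at 0.923. CESA2 correlated with the other 7 genes at 0.16 to 0.30. These values describe libraries that share their groups and header prefixes, so the split between high and low dark libraries enters each of them. Taken as deviations from group means, CESA1, CESA3, CESA6 and CSI1 still correlated at 0.912 to 0.976 and CESA2 with CESA1 at 0.732, while COBRA correlated with these 4 at -0.201 to -0.008 and with KOR1 at 0.565. The largest deviations were in flΔ4_Dark 3, in which the median of the 8 genes was 0.45 above the group mean, cry2_Dark 1 (-0.29), flΔ4_Dark 1 (-0.26) and WT_Blue 3 (-0.21). In the same libraries all genes with transcripts of 4 kb or more were at 0.35, -0.21, -0.22 and -0.18.

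Transcript length also differed among the members. In the annotation CSI1 has a transcript of 7205 bases in 8 exons, CESA1, CESA2, CESA5 and CESA6 have 4138 to 4247 bases in 13 or 14 exons, CESA3 has 3825 bases in 15 exons, KOR1 2540 bases and COBRA 2107 bases. In the light response of wild type against WT_Dark 1-3, the median of all tested genes ran from 0.18 for transcripts under 1 kb to -0.35 for the 736 of 4 kb or more, of which 48.5% fell. In cry2-1 those medians were 0.00 and 0.01, and in the interaction they were -0.20 and 0.40. After a trend in transcript length was removed from each library, the same 7 genes fell in wild type (beside 31.8% of all genes), CESA3 by 1.44 ± 0.08 and CSI1 by 1.47 ± 0.11. CESA2 was then higher in light, at 0.26 ± 0.08 (adjusted p = 0.0101, beside 30.7% of all genes). Against WT_Dark 4-6 the same 4 fell (beside 8.39% of all genes), CESA3 by 0.52 ± 0.08 and CESA1 by 0.27 ± 0.08 (adjusted p = 0.0453), and CESA2 did not pass, at 0.20 ± 0.11 (adjusted p = 0.217). With the trend removed CESA2 was also lower in cry2_Blue than in WT_Blue, with a difference of -0.42 ± 0.08 (adjusted p = 0.0186, beside 1.36% of all genes). The part of transcript length in these results was not tested beyond this adjustment. This adjustment was chosen after the values were seen.

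**Figure D4:**
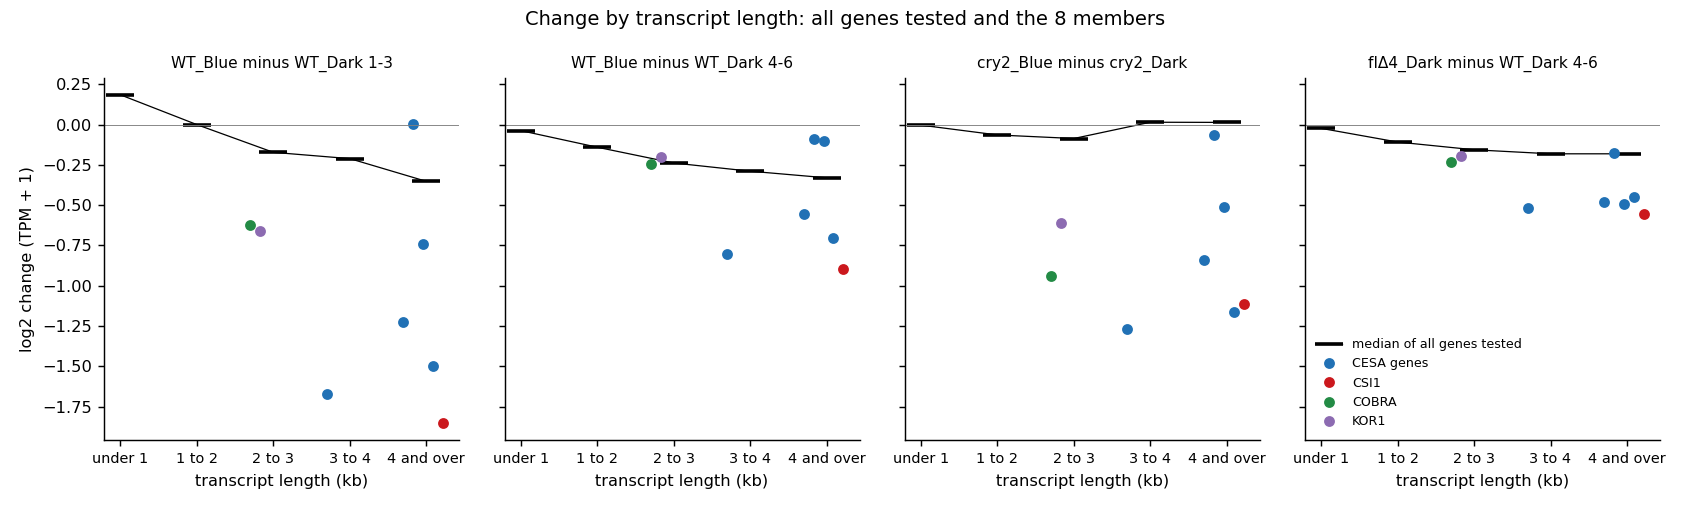
Log2 change in TPM + 1 (y axis) by transcript length class in kb (x axis) in 4 comparisons (panels). Black bars joined by a line are medians of all genes tested and points are the 8 genes, spread sideways within a class for clarity. In wild type the medians go from 0.18 to -0.35 against WT_Dark 1-3, and CSI1, CESA3, CESA6 and CESA1 lie below the median of their class in the 4 panels.

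Genes with the most similar pattern were sought among the 15213 genes whose mean over all libraries reached 5 TPM, by Pearson correlation over the 18 libraries. The mean profile of CESA1, CESA3 and CESA6 was matched best by AT2G21390 (0.996), AT4G32390 (0.991), AT1G62020 (0.990), SPL14 (0.990) and SHOU4L (0.989). SHOU4L is one of the pair of SHOU4 membrane proteins that restrain the delivery of cellulose synthase to the cell surface, and SPL14 is a transcription factor of the SBP family. The transcripts of AT2G21390, AT1G62020 and SPL14 are over 4 kb long. The nearest gene to CSI1 was AT2G21390 (0.991), to CESA5 CIP7 (0.960), to KOR1 ENT1 (0.968), and to COBRA the chitinase-like gene CTL1 (0.974), which is needed for cellulose synthesis. The nearest to CESA2 was WRKY3, at 0.743.

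Other genes of the pathway were read from lists by role. Of 17 partners of the complex, 13 were tested. In the light response of wild type against WT_Dark 1-3, 12 fell, beside 32.9% of all genes. CC1, a microtubule-binding companion of cellulose synthase, rose (85.4 ± 2.44 to 104 ± 2.86 TPM, 0.28 ± 0.09, adjusted p = 0.0175 in limma). It was at 88.8 ± 2.31 TPM in WT_Dark 4-6 and was not called higher against that set. In cry2-1 its mean was 105 ± 12.4 TPM in darkness and 91.3 ± 3.02 TPM in blue light. CC1 was named after its value was seen. CESA9, CESA10, CSI2 and KOR3 were at no more than 0.64 TPM in any library and were not tested. The clearest falls were SHOU4 (-1.32 ± 0.09), STL1 (-1.34 ± 0.10), SHOU4L (-1.60 ± 0.14) and STL2 (-1.09 ± 0.13). STL1 and STL2 are Golgi proteins that assist assembly of the complex. The mean of SHOU4L was 50.4 ± 2.02 TPM in WT_Dark 1-3, 24.8 ± 0.15 in WT_Dark 4-6 and 16.1 ± 2.95 in WT_Blue. Of the 13 genes, 7 were lower in WT_Blue against both dark sets, these 4 among them. Of all genes, 20.1% fell against WT_Dark 4-6.

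Of 8 genes that supply UDP-glucose and mature glycans, 7 were tested, and 4 fell and 2 rose in WT_Blue against WT_Dark 1-3, beside 32.9% and 28.7% of all genes. The related UDP-glucose pyrophosphorylases moved apart. UGP1 went from 72.5 ± 2.36 TPM in WT_Dark 1-3 and 52.3 ± 8.25 in WT_Dark 4-6 to 34.7 ± 4.30 in WT_Blue, and fell by 1.05 ± 0.10 against the first set. UGP2 went from 14.5 ± 2.22 and 17.3 ± 1.67 TPM to 52.9 ± 6.64 TPM, and rose by 1.80 ± 0.12 (adjusted p = 1.145e-07) and, against WT_Dark 4-6, by 1.56 ± 0.11 (adjusted p = 4.441e-06). The sucrose synthase SUS1 fell by 1.69 ± 0.16 against WT_Dark 1-3 and differed by -0.19 ± 0.17 against WT_Dark 4-6. In cry2-1, UGP1 fell by 1.02 ± 0.10 and UGP2 rose by 1.29 ± 0.12.

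Among 8 genes of wall sensing and brassinosteroid signalling, 5 fell and 2 rose in wild type against WT_Dark 1-3, beside 32.9% and 28.7% of all genes. The receptor kinase THE1, which senses cellulose deficiency, fell by 1.43 ± 0.13, and the brassinosteroid receptor BRI1 by 1.15 ± 0.12. Against WT_Dark 4-6 these were the 2 of 8 that fell, by 0.62 ± 0.14 and 0.42 ± 0.12, a share near the 20.1% of all genes. The wall-sensing receptor kinase FER fell by 0.88 ± 0.10 against WT_Dark 1-3 and differed by -0.16 ± 0.10 against WT_Dark 4-6. The means of BES1 and FEI1 were higher in WT_Blue (137 ± 10.6 and 81.9 ± 11.4 TPM) than in WT_Dark 1-3 (94.8 ± 6.43 and 58.9 ± 0.41 TPM). In WT_Dark 4-6 they were 132 ± 14.0 and 88.2 ± 3.49 TPM.

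Cortical microtubules guide the complexes, and their genes moved with the members. Of 21 tubulins and microtubule proteins, 19 fell in wild type against WT_Dark 1-3 and none rose, beside 32.9% and 28.7% of all genes. Of the 21, 17 were lower against both dark sets. The share of all genes lower against both was not counted, and 20.1% fell against WT_Dark 4-6. The median change of the list was -0.93. The beta-tubulin TUB1 was at 72.4 ± 3.54 TPM in WT_Dark 1-3, 25.8 ± 14.2 in WT_Dark 4-6 and 10.5 ± 1.77 in WT_Blue, and TUB8 at 129 ± 3.06, 50.9 ± 2.07 and 27.1 ± 0.67 TPM. TUB1 fell by 2.69 ± 0.14 and TUB8 by 2.21 ± 0.10 against the first set, and by 1.11 ± 0.28 and 0.89 ± 0.10 against the other. Tubulin genes resemble each other, so reads may be shared between them. In cry2-1, 18 of the 21 fell and 11 of the 13 partners fell, beside 30.2% of all genes.

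By genotype, 1 of the 13 partners, 2 of the 7 supply genes, none of the 8 sensing genes and 2 of the 21 microtubule genes differed in darkness against WT_Dark 1-3, beside 12.9% of all genes. In that comparison CC2, TUB1, UGP1, UGP2 and MAP65-1 were higher in cry2_Dark than in WT_Dark 1-3, by 0.66 ± 0.13, 0.76 ± 0.14, 0.40 ± 0.10, 0.49 ± 0.12 and 0.42 ± 0.12. The partner CC2 was the gene of these 4 lists whose light response differed between genotypes, with an interaction of -0.74 ± 0.18 (adjusted p = 0.0489, beside 2.81% of all genes), at 21.4 ± 3.65 and 12.7 ± 0.82 TPM in WT_Dark 1-3 and WT_Blue and at 34.2 ± 2.90 and 12.02 ± 1.23 TPM in cry2_Dark and cry2_Blue. In blue light SUS1 (0.75 ± 0.16) and UGP1 (0.43 ± 0.10) were higher and CTL1 (-0.39 ± 0.10) and BES1 (-0.52 ± 0.10) lower in cry2-1, beside 3.34% of all genes. Against WT_Dark 4-6, 10 of the 13 partners and 13 of the 21 microtubule genes were higher in cry2_Dark, beside 20.5% of all genes, and the interaction passed for 8 of the 13 partners and 10 of the 21 microtubule genes, beside 22.5% of all genes. Of the supply and sensing genes, 3 of 7 and 3 of 8 were higher in cry2_Dark than in WT_Dark 4-6, beside the same 20.5% of all genes. In that comparison 3 of the 8 sensing genes were lower, beside 4020 of 19888 genes. None of the genes of these lists passed in flΔ4_Dark against WT_Dark 4-6.

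**Figure D5:**
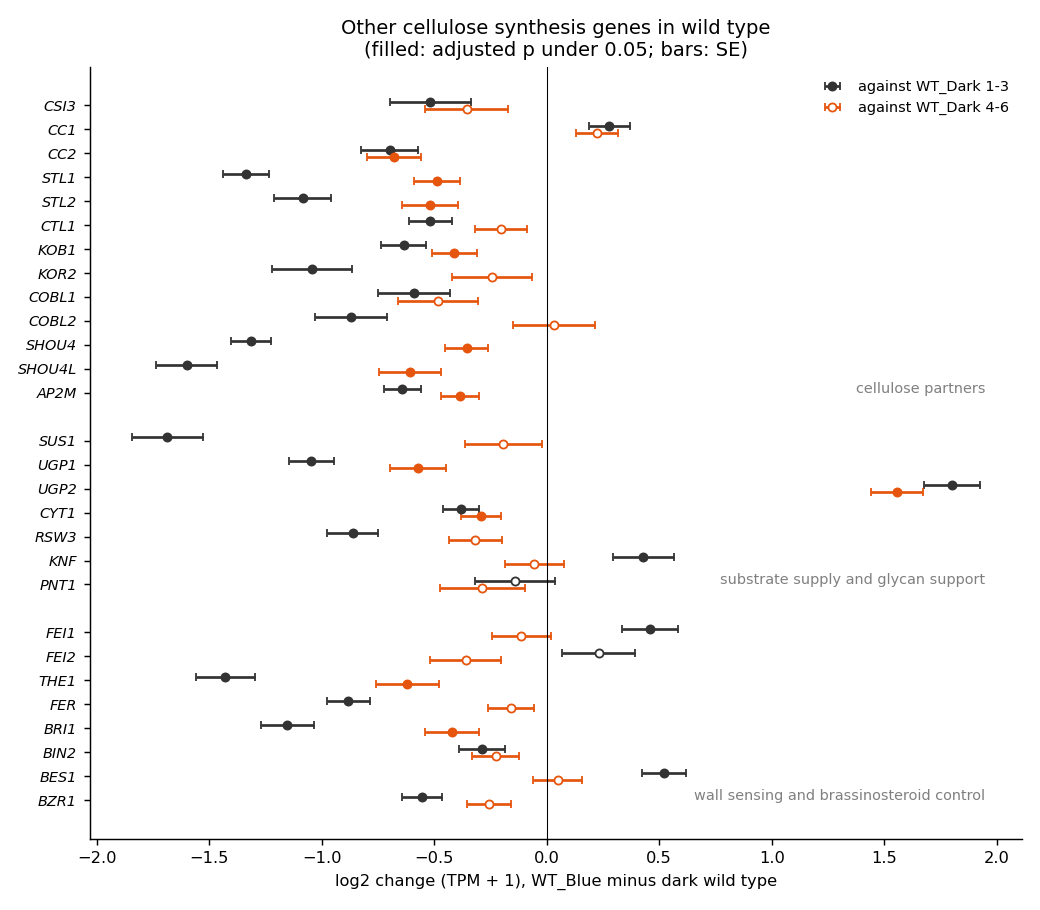
Log2 change in TPM + 1 (x axis) in WT_Blue against WT_Dark 1-3 (black) and against WT_Dark 4-6 (orange) for genes of 3 lists (rows), with bars of 1 SE and filled points for adjusted p under 0.05 in limma. Of the partners, 7 are filled on the left in both colours, and UGP2 is filled on the right in both, at 1.80 and 1.56.

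In the annotation, CESA1, CESA3, CSI1 and KOR1 overlap a gene on the opposite strand (AT4G32400, AT5G05160, AT2G22140 and AT5G49710). The libraries were stranded, but the strand setting of the counting is not given in the sources used here, so reads of these partners may be included.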

How the data were processed

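The authors trimmed reads with fastp, aligned them to TAIR10 with HISAT2 and estimated abundance with StringTie, per the submitters' processing notes, in an order and with versions and settings not given in the sources used here. Per the labels, RNA was extracted with TRIzol and made into Illumina Stranded mRNA libraries. The deposited values are TPM per locus for 18 libraries. The members, gene lists and comparisons were chosen with earlier results of these data known. The plan for tests assumed TPM and was followed. Which WT_Dark libraries belong with which mutant is not stated, and the split into 1-3 and 4-6 follows the title numbers.

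limma 3.58.1 in R 4.3.3 (trend, robust) was run on log2(TPM + 1) for genes whose mean TPM in a fit reached 1. The added 1 understates changes of low genes. Calls needed a p under 0.05 after Benjamini-Hochberg adjustment over all genes tested. One fit held WT_Dark 1-3, cry2_Dark, WT_Blue and cry2_Blue, and fits of 6 libraries held flΔ4_Dark with WT_Dark 4-6 and both dark sets. The fits were tested on simulated data. Shares of CESA transcripts were compared by exact permutation. Loci were matched to RefSeq TAIR10.1 for lengths, overlaps and upstream sequence (32548 of 32833 matched). The files carry no coordinates, so positions are those of TAIR10.1. Genes of a list were named if called with one of the 4 smallest p-values of their list in a comparison; others named are in counts of few genes or were followed to another comparison after their values were seen. The deviations of same-numbered replicates were not correlated in every pair, so no pairing was used. Depth per library is unknown, and precision rests on the spread of replicates.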

Additional observations from a re-analysis of the deposited data

Results flagged for a closer look

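With WT_Dark 4-6 as the dark wild type, the light response of COBRA differed between genotypes, at -0.70 ± 0.14 on the log2 scale (SE, limma interaction, adjusted p = 0.00421). It was the only 1 of the 8 genes to pass, beside 22.5% of 19888 genes. COBRA fell by 0.94 ± 0.09 in cry2-1 and differed by -0.24 ± 0.10 in wild type against that set. With WT_Dark 1-3 the interaction was -0.32 ± 0.13 (adjusted p = 0.197) and wild type fell by 0.62 ± 0.09. With all 6 dark wild-type libraries the interaction was -0.51 ± 0.18 (adjusted p = 0.497 in limma), where 4 of 19957 genes passed. COBRA itself differed by -0.38 ± 0.09 between the dark sets.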

How the results depend on the processing

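Of the alternatives for each gene's change in each comparison, 859 stayed on their side of the threshold, 43 of them uncalled with the other sign, 36 passed newly, 11 were lost and 14 changed sign where one of the values was called. The choice of dark wild type moved most. With WT_Dark 4-6 the genes called were 4 in the light response of wild type, 1 in the interaction and 6 in the cry2 effect in darkness. Over all 19888 genes tested these counts were 5794, 4472 and 8104. In the cry2 effect in darkness CSI1 (0.76), CESA1 (0.56) and CESA6 (0.68) reversed with that set. Uncalled interactions also changed sign there, in CSI1 (-0.22), CESA1 (-0.29), CESA3 (-0.46), CESA5 (-0.41), CESA6 (-0.46) and KOR1 (-0.41). With the length trend also removed, the counts were 4, 7 and 6, beside 4197, 4952 and 8735 of all 19888 genes. CESA5 (0.18) and KOR1 (0.02) then reversed in the light response of wild type, CSI1 (-0.74), CESA1 (-0.64), CESA3 (-0.78), CESA5 (-0.75), CESA6 (-0.80) and KOR1 (-0.57) in the interaction, and CSI1 (0.93), CESA1 (0.64) and CESA6 (0.76) in the cry2 effect in darkness. Against WT_Dark 1-3, 7 genes were called in flΔ4_Dark, also with the length trend removed or with a replicate block. Of all 19686 genes tested, 9790, 10975 and 9872 were called in these settings. The length trend removed alone gave 1 gene in the cry2 effect in blue light, beside 306 higher and 272 lower of all 19985 genes. The cause of these shifts was not tested. Leaving out single libraries gave 0 to 5 genes in flΔ4_Dark against WT_Dark 4-6 and 6 to 7 in the light response of cry2-1, and left the other counts as they were.

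The replicate block changed no call of the 8 genes in the fit of 12 libraries, and same-numbered libraries of different groups correlated at -0.06 to 0.23 in their deviations from group means, over 0.1 only in WT_Blue and cry2_Blue 2 and 3. No block was possible for WT_Dark 4-6 with flΔ4_Dark or with WT_Dark 1-3, which share no numbers.

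Over all genes, calls in flΔ4_Dark numbered 59, against 14 with no filter, 38 with median-of-ratios scaling, 16 in plain limma, 32 without the length trend, 247 with all 6 dark libraries, 2770 in a fit of 18 libraries, 9790 with WT_Dark 1-3, and 19 to 2940 leaving out single libraries. Calls in the interaction numbered 561, against 278 in plain limma, 154 in the fit of 18 libraries, 298 without the length trend, 4 with all 6 dark libraries, 4472 with WT_Dark 4-6, and 95 to 1555 leaving out single libraries. The cry2 effect in darkness gave 2578, against 8104 with WT_Dark 4-6, 414 with all 6 and 1039 to 1838 leaving out single libraries. In blue light it gave 668, against 141 in the fit of 18 libraries and 269 to 790. The light response of wild type gave 12317, against 5794 with WT_Dark 4-6 and 6852 with all 6. Scaling to a median of ratios changed no call of the 8 genes and moved the higher and lower calls from 521 and 147 to 302 and 293 in the cry2 effect in blue light and from 5864 and 4151 to 4936 and 5316 between the dark sets, where the median of all genes went from 0.08 to -0.02. Leaving out rRNA and organelle loci moved those of the interaction from 260 and 301 to 331 and 136. Depth cannot be judged from TPM.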
